A study of Bubalus bubalis with 6 samples.

Results

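The genes described here encode collagens, laminins, fibrillins and fibulins, thrombospondins, integrins, the ADAM, ADAMTS and MMP proteases and the TIMP inhibitors, as 188 probes with 75 gene names on an array of 177440 probes, of which 19762 carry any of 7932 names. They were chosen by their names alone: every non-control probe whose name begins with a symbol of one of these families was taken, and probes were grouped by name. The study compared the sperm of 6 water buffalo (Bubalus bubalis) bulls, 3 subfertile bulls (SF1, SF4 and SF5) and 3 high-fertile bulls (HF2, HF3 and HF5), with 1 array per bull. DNA bound by an antibody against 5-methylcytosine (IP, Cy5) was hybridised beside that bull's own input DNA (Cy3), so a higher log2(IP/input) means more antibody-bound DNA at a probe, relative to the median of all probes on that array. All DNA came from frozen semen. The labels name neither age nor breed nor how fertility was scored, and each bull is a separate animal.

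The extracellular matrix is built from fibrous proteins such as collagens and fibrillins and from the sheet-like basement membrane of type IV collagen and laminins. Cells hold on to it through integrins, paired alpha and beta receptors. ADAMTS and MMP enzymes cut matrix proteins, TIMPs block these enzymes, and ADAMs are membrane-bound relatives, several of which sit on the sperm surface in mice and act in sperm transport and binding to the egg coat. In the seminiferous tubule the basement membrane carries the spermatogonia and Sertoli cells, and spermatogonial stem cells of mice are known to carry the laminin receptor subunits ITGA6 and ITGB1. In most mammals the sperm genome is highly methylated outside CpG islands.

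A log2(IP/input) value rests on a 60-base probe, so the probes on which the results turn are shown first. Numbers after a gene name count its probes along the chromosome, CpG dinucleotides, the main targets of methylation, are in capitals, and all else is in lower case. The chromosome names run to 29 and the build and strand of the coordinates are not given in the sources used here. Of the tested member probes (filter described below), FBN1_5, ITGA7_1 and ITGA6_1 are the 3 at which subfertile and high-fertile bulls did not overlap.
FBN1_5: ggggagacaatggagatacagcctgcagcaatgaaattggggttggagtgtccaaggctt
ITGA7_1: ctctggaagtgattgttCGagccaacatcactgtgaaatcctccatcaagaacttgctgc
ITGA6_1: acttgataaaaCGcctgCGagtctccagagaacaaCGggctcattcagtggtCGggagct
They lie at chr10:63528347-63528406, chr5:62134897-62134956 and chr2:24965800-24965859 in the files' coordinates. The FBN1 probe holds no CpG, the ITGA7 probe 1 and the ITGA6 probe 4.

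The 3 tested probes of MMP16, the member whose level lay below the array median in the test across all bulls, span 2624 bases of chromosome 14, and the last pair overlaps.
MMP16_2: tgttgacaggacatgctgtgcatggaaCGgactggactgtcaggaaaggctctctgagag
MMP16_3: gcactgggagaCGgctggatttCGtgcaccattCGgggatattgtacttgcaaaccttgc
MMP16_4: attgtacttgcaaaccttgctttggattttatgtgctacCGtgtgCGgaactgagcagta
The next probes belong to genes that differed between scan sessions, 5 that were lower on the later dates and 2 that were higher. The last 2 were chosen for display after their values were seen. ADAMTS12_5 had the largest session difference of the 3 tested probes of its gene, and not every gene called between sessions is shown.
ADAMTS9_1: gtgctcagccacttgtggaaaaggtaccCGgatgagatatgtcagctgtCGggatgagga
MMP3_1: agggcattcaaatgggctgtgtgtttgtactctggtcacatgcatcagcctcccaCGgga
ITGAV_3: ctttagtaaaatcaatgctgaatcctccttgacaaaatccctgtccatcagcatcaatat
ITGB1BP2_1: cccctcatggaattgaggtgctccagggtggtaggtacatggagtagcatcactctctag
ADAMTS12_5: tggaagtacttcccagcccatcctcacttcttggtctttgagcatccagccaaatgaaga
FBLN1_1: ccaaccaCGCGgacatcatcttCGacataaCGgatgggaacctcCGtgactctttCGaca
COL1A1_1: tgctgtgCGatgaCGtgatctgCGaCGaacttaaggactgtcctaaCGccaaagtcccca
They lie at chr22:37666637-37666696, chr15:4734525-4734584, chr2:10265141-10265200, chrX:49176814-49176873, chr20:42687827-42687886, chr5:122767546-122767605 and chr19:37636639-37636698. ITGAV_3, ITGB1BP2_1 and ADAMTS12_5 hold no CpG, whereas FBLN1_1 holds 6 and COL1A1_1 holds 5.

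Testing required, on every one of the 6 arrays, an input signal well above background and no uniformity flag, which 67 of the 188 member probes passed (35.6%, against 38.7% of all named probes). These left 40 of the 75 genes, called gene regions here, each the mean of its tested probes. Of the 40, 24 rested on 1 probe, 10 on 2 and 6 on 3 or more. By family, 9 of 13 collagens, 2 of 5 laminins, all 3 fibrillins and fibulins, 2 of 3 thrombospondins, 8 of 14 integrins, 9 of 14 ADAMTS genes, 4 of 8 MMPs and 2 of 3 TIMPs could be tested. None of the 8 ADAM genes could: their input signal was well above background at 18 of 72 spots, against 195 of 258 spots of the ADAMTS genes. The pattern also caught 4 names outside these families (COL4A3BP, ITGB1BP1, ITGB1BP2 and ITGB3BP), of which ITGB1BP2, a muscle protein that binds an integrin beta subunit, was tested. Tested member probes held a median of 2 CpGs and a median GC content of 51.7%, and the 121 untested ones 1 CpG and 41.7%.

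Scan dates in the file headers put SF1, SF5 and HF5 on later dates and SF4, HF2 and HF3 in a first session. SF5 and HF5 shared a slide, and SF1 shared the other slide with the first-session bulls. Session and slide thus part only at SF1, and a slide effect on the session comparisons was not tested. Input was well above background at 82.4% to 95.5% of all probes on the later arrays and at 69.0% to 74.7% on the first ones, and IP at 76.5% to 85.2% on the later and 37.6% to 58.6% on the first. The header of SF1 names the CGH protocol of the extraction software, the other 5 the ChIP protocol. Over the 40 gene regions, pairs of bulls of the same session correlated at 0.52 to 0.87 and pairs of different sessions at -0.30 to 0.08, a description across genes that share the arrays. Both sessions hold both groups, so each group comparison is also given with the session as a block. Markers of other cells of semen, at the few that were tested (3 of 14 leukocyte and 4 of 10 epithelial genes), gave no call between groups, and the leukocyte mean ran between -0.11 and 0.39 in subfertile and between -0.15 and 0.17 in high-fertile bulls. Genes with a paternal imprinting mark, methylated in sperm, averaged -0.11 to 0.17 in subfertile and -0.15 to 0.02 in high-fertile bulls, and genes with a maternal mark -0.25 to -0.01 and -0.36 to 0.06, so the ranges of the 2 marks overlapped in both groups.

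No matrix gene region differed between subfertile and high-fertile bulls after adjustment. In limma's test across 4286 gene regions, with Benjamini-Hochberg adjustment and a threshold of 0.05, 0 of the 40 members were called (0% of all gene regions were called), and 1 member had an unadjusted p under 0.05, against 0.793% of all. Of the 40 differences, 18 were above 0 and 22 below, and 52.2% of all gene regions were above 0. The median of the members was -0.10 and that of all gene regions was 0.02. With the session as a block 0 members were called again (0% of all), 1 had an unadjusted p under 0.05 (2.66% of all), the medians were -0.01 for members and 0.03 for all, and 20 members lay on each side of 0 (55.1% of all were above). In the fit without the block, the 95% intervals reached a median of 0.97 log2 units to either side. The narrowest reached 0.60 and the widest 2.17, so precision was limited. The members' median SE was 0.41 in that fit and 0.28 with the session as a block.

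**Figure D1:**
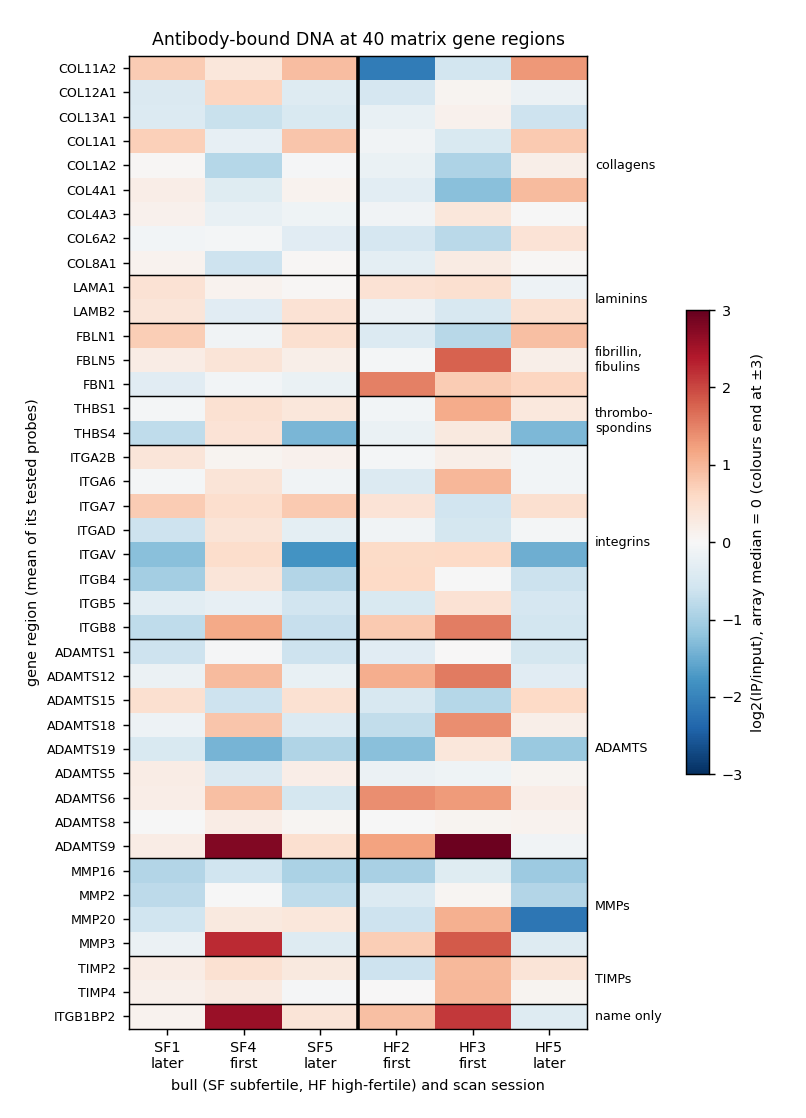
Heat map of log2(IP/input) at the 40 tested gene regions (rows, by family) in the 3 subfertile and the 3 high-fertile bulls (columns, with scan session); red is above and blue below the array median. ADAMTS9, MMP3 and ITGB1BP2 are darkest in SF4 and HF3, both of the first session, and FBN1 is redder in all 3 high-fertile bulls than in the subfertile ones.

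At FBN1, the fibrillin that forms the microfibrils of connective tissue, the single tested probe measured -0.33, -0.08 and -0.19 in SF1, SF4 and SF5, and 1.52, 0.77 and 0.65 in HF2, HF3 and HF5. All 3 subfertile bulls lay below all 3 high-fertile bulls. The difference was -1.18 ± 0.33 (SE, 3 bulls per group) with a 95% interval of -1.94 to -0.41, an unadjusted p of 0.00802 and an adjusted p of 1 in limma's fit across all gene regions. With the session as a block it was -1.07 ± 0.29 (limma adjusted p = 0.999), and it was -1.22 within the first session and -0.91 within the later dates. IP was well above background at this probe in 2 of 3 subfertile and 2 of 3 high-fertile bulls. The difference shrank to -0.36 under normexp background correction and to -0.17 when the other 5 FBN1 probes, whose input was dim on at least 1 array and at which the groups overlapped, were averaged in.

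ITGA7, a laminin receptor subunit best known from muscle, measured 0.77, 0.51 and 0.79 in SF1, SF4 and SF5, and 0.42, -0.56 and 0.48 in HF2, HF3 and HF5. The lowest subfertile bull, SF4, lay just above the highest high-fertile bull, HF5, and HF3 stood apart from the other high-fertile bulls. The difference of 0.58 ± 0.36 (SE) did not pass the test (limma adjusted p = 1), and it was 0.44 with the session block, 0.24 without HF3, 0.30 within the later dates and 0.38 under normexp correction. FBN1 and ITGA7 were thus the 2 of 40 members whose groups did not overlap, against 3.87% of all gene regions. At single probes, 0 of 67 member probes were called (0% of all 110686 probes, with an unadjusted p under 0.05 at 2 member probes and at 1.84% of all), and 3 did not overlap, against 5.78% of all.

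The third of these probes lies in ITGA6, a subunit of laminin receptors. ITGA6_1 measured 0.74, 0.53 and 0.71 in SF1, SF4 and SF5, and -0.73, 0.15 and 0.25 in HF2, HF3 and HF5. Its difference was 0.77 ± 0.34 (SE, limma adjusted p = 1 across probes), and it was 0.46 without HF2 and 0.48 within the later dates. The other tested ITGA6 probes, within 70668 bases, gave differences of -0.76 and -0.27 with overlapping groups, and the mean of the gene region was 0.08 ± 0.27 in subfertile and 0.16 ± 0.74 in high-fertile bulls (SD, n = 3 each). Probes of the same gene thus had opposite signs here.

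**Figure D2:**
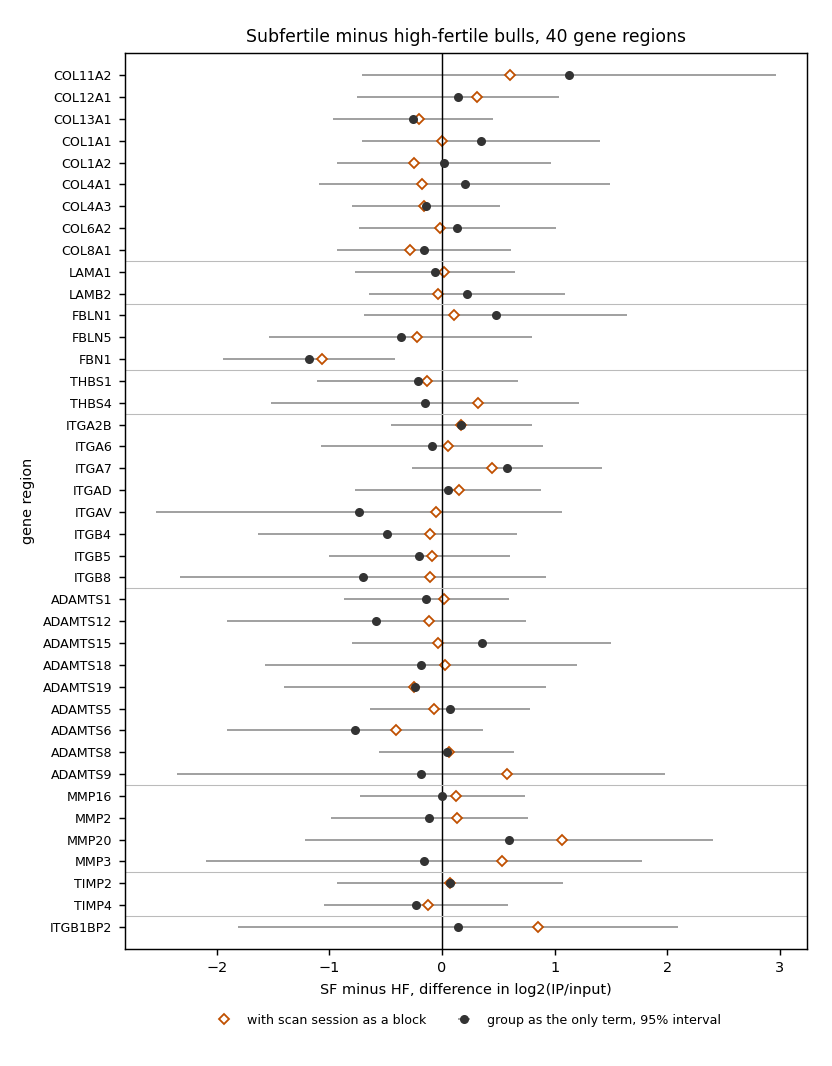
Subfertile minus high-fertile difference in log2(IP/input) for the 40 gene regions by family, with the 95% interval of the fit with group as its only term (filled points) and the value with scan session as a block (open diamonds). The interval of FBN1, from -1.94 to -0.41, is the one of the 40 that leaves out 0.

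Among the collagens, 6 of 9 differences were above 0 and 3 below, with a median of 0.14, which was -0.16 with the session block. COL11A2, a chain of cartilage type XI collagen, measured 0.75, 0.34 and 0.92 in SF1, SF4 and SF5, and -2.11, -0.56 and 1.30 in HF2, HF3 and HF5. The high-fertile bulls spanned the whole range of the subfertile ones, and IP was not well above background in HF2, the lowest of them. Its mean was 0.67 ± 0.30 in subfertile and -0.46 ± 1.71 in high-fertile bulls (SD, n = 3 each). The chains of type I collagen, the main fibre of bone and tendon, differed between groups by less than their SDs, with COL1A1 at 0.43 ± 0.59 in subfertile and 0.08 ± 0.64 in high-fertile bulls and COL1A2 at -0.29 ± 0.49 and -0.31 ± 0.56. The basement membrane chains COL4A1 and COL4A3 averaged -0.01 ± 0.30 and -0.07 ± 0.18 in subfertile bulls, and -0.22 ± 1.11 and 0.07 ± 0.23 in high-fertile bulls.

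Laminins, the partner of type IV collagen in the basement membrane, were tested through LAMA1 and LAMB2. LAMA1 measured 0.42, 0.09 and 0.04 in SF1, SF4 and SF5, and 0.42, 0.48 and -0.15 in HF2, HF3 and HF5. LAMB2, at 2 overlapping probes, averaged 0.15 ± 0.43 in subfertile and -0.07 ± 0.48 in high-fertile bulls (SD, n = 3 each). The groups overlapped at both genes. FBLN5, an elastic fibre protein, averaged 0.26 ± 0.11 in subfertile and 0.63 ± 0.995 in high-fertile bulls, where HF3 alone reached 1.77. THBS1, an adhesive glycoprotein that can bind integrins, averaged 0.24 ± 0.27 in subfertile and 0.46 ± 0.61 in high-fertile bulls.

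Of the 8 integrin subunits, 3 had a difference above 0 and 5 below, with a median of -0.14 that was close to 0 with the session block. ITGAV, the alpha subunit of several receptors for fibronectin and vitronectin, averaged -0.84 ± 1.22 in subfertile and -0.10 ± 1.18 in high-fertile bulls (SD, n = 3 each). ITGB8, one of its partners, averaged -0.10 ± 1.07 in subfertile and 0.60 ± 1.06 in high-fertile bulls. With the session block the differences were -0.05 and -0.11, so little of either was left once the session was accounted for. At both genes the SDs exceed the difference between the group means.

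The ADAMTS proteases had 3 differences above 0 and 6 below, with a median of -0.19, or -0.04 with the block. ADAMTS6 had the smallest unadjusted p of the family and measured 0.19, 0.89 and -0.53 in SF1, SF4 and SF5, and 1.40, 1.28 and 0.21 in HF2, HF3 and HF5. The groups overlapped, with an adjusted p of 1 in limma's fit. ADAMTS5 and ADAMTS1, enzymes that cut the proteoglycans aggrecan and versican, had the most tested probes. The 6 ADAMTS5 probes lie within 1115 bases, with levels over all bulls between -0.41 and 0.16, 4 differences above 0 and 2 below. The 5 ADAMTS1 probes had levels between -0.52 and -0.20, and 4 of 5 differences were below 0.

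Of the MMPs, MMP20, an enzyme of tooth enamel, was the sole member called in any comparison of the groups, and only within the later dates. It measured -0.59, 0.30 and 0.34 in SF1, SF4 and SF5, and -0.62, 1.06 and -2.17 in HF2, HF3 and HF5. The groups overlapped over all 6 bulls, and HF5 lay far below the rest. Within the later dates, where HF5 is the only high-fertile bull and is assumed to vary like the others, it was higher in subfertile bulls (limma adjusted p = 0.0043), 1 of 40 members called against 2.22% of all gene regions. Among high-fertile bulls IP exceeded background at its probe in HF3 but not in HF2 or HF5, and the call rests on the HF5 value, so no size is given. The interaction of group and session was not called (0 of 40 members and 0% of all gene regions, with 0 members and 4.18% of all at an unadjusted p under 0.05). The TIMPs, which block MMPs, had overlapping groups: TIMP2 averaged 0.32 ± 0.12 in subfertile and 0.25 ± 0.80 in high-fertile bulls, and TIMP4 0.13 ± 0.17 and 0.36 ± 0.54 (SD, n = 3 each).

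As a group the members shifted little. Their median difference relative to all gene regions was -0.12, and -0.04 with the session block. Leaving out HF5 gave -0.25 and leaving out HF3 gave 0.003, so its size rested on single bulls. The sign of the difference was kept under every alternative that retained the gene for 6 of 40 members: ADAMTS6, FBN1, ITGAV and ITGB8 stayed lower and ITGA2B and ITGA7 stayed higher in subfertile bulls, none of them past the threshold. Within the first session the differences of ITGAV, ITGB8 and ITGA2B were near 0, at -0.04, -0.03 and 0.01. The share of all gene regions that kept their sign was not counted.

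Averaged over all 6 bulls, the members lay on both sides of the array median, 21 above and 19 below, with a median of 0.05 against -0.14 for all gene regions. IP carried Cy5 on every array, so any dye bias of a probe is part of its level. MMP16, a membrane-anchored matrix metalloproteinase, was the 1 of 40 members whose level differed from the array median (limma adjusted p = 0.0228), against 8.75% of all gene regions (7.82% below the median). Its level was -0.81 ± 0.28 (SD, n = 6), at -0.88, -0.60 and -0.95 in SF1, SF4 and SF5, and -0.98, -0.36 and -1.09 in HF2, HF3 and HF5. All 6 bulls lay below 0 and the groups overlapped. Its probes spread from -1.44 for MMP16_2, where IP was well above background in 1 of 3 bulls of either group, to -0.38 for MMP16_4. The call was lost without SF1, SF5, HF2 or HF5 (limma adjusted p of 0.0648, 0.0911, 0.0556 and 0.0626), when arrays were centred on tested probes (0.0616) and without the input filter (level -0.37, adjusted p = 0.348). The level was -0.50 over probes with IP above background on all arrays and -0.39 under normexp correction.

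The other low members, none of them called, were ADAMTS19 at -0.81 ± 0.64, THBS4 at -0.49 ± 0.78, ITGAV at -0.47 ± 1.15, MMP2 at -0.46 ± 0.41 and COL13A1 at -0.37 ± 0.29 (SD, n = 6). The highest were ADAMTS9 at 1.26 ± 1.32, ITGB1BP2 at 0.95 ± 1.17, MMP3 at 0.64 ± 1.16, ADAMTS6 at 0.57 ± 0.75, ADAMTS12 at 0.48 ± 0.81 and FBLN5 at 0.44 ± 0.67. Each of these 6 highest levels was smaller than its SD, and neighbours in this order did not differ beyond that spread. COL13A1, a collagen that spans the cell membrane, had the smallest SD of the genes in this paragraph, and its 3 overlapping probes averaged -0.41, -0.22 and -0.50 within 120 bases.

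Larger differences between the bulls went with the scan session, and so largely with the slide. With fertility group as a second term, 12 of 40 members were called between the later dates and the first session, 3 higher and 9 lower on the later dates, against 20.1% of all gene regions (7.3% higher and 12.8% lower). When arrays were centred on tested probes instead, 1 was higher and 10 lower, against 24.4% of all gene regions called. Under normexp correction 6 were higher and 8 lower, against 33.1% of all. The count was 0 without SF4 and without HF5 (0% of all gene regions each), 2 without SF5 (4.57% of all) and 5 without SF1 (7.75%), while it was 16 without HF2 (32%) and 12 without HF3 (21.3%). Sessions did not overlap at 19 members, against 48.6% of all gene regions. The median of the members was -0.31 and that of all gene regions 0.01. The shares of probes above background given earlier move with the session, and their part in these differences was not tested.

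The 3 members higher on the later dates were ADAMTS15, FBLN1 and COL1A1. COL1A1 measured 0.70, 0.83 and 0.79 in SF1, SF5 and HF5, scanned later, and -0.25, -0.09 and -0.46 in SF4, HF2 and HF3, scanned first. The sessions were far apart and each was even. The difference was 1.04 ± 0.23 (SE, limma adjusted p = 0.027). FBLN1, a fibulin of basement membranes and elastic fibres, measured 0.73, 0.49 and 0.91 in SF1, SF5 and HF5, and -0.12, -0.41 and -0.83 in SF4, HF2 and HF3, a difference of 1.12 ± 0.29, which was 0.73 without HF5 (limma adjusted p = 0.315). ADAMTS15 had a difference of 1.18 ± 0.24. Centred on tested probes, COL1A1 and FBLN1 missed the threshold (limma adjusted p of 0.0502 and 0.0606), and without the input filter COL1A1 did (difference 0.58, adjusted p = 0.188).

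Of the 9 lower members, 7 were proteases or integrin subunits. These families also gave many of the 40 tested members (9 ADAMTS genes, 4 MMPs and 8 integrins), and the protease ADAMTS15 was higher. ADAMTS9, which cuts versican and aggrecan, measured 0.23, 0.48 and -0.10 in SF1, SF5 and HF5, and 2.77, 1.21 and 2.94 in SF4, HF2 and HF3. The later bulls lay near the array median and the first ones well above it. The difference was -2.30 ± 0.46 (SE, limma adjusted p = 0.0204). MMP3, stromelysin, measured -0.18, -0.38 and -0.40 in SF1, SF5 and HF5, and 2.23, 0.73 and 1.83 in SF4, HF2 and HF3, a difference of -2.10 ± 0.37. ITGAV measured -1.26, -1.80 and -1.46 in SF1, SF5 and HF5, and 0.54, 0.56 and 0.59 in SF4, HF2 and HF3. Each session was even, with a difference of -2.05 ± 0.25, although IP was well above background in only 1 of 3 later bulls.

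ITGB8 had a difference of -1.79 ± 0.28 (SE) and ITGB1BP2 of -2.12 ± 0.37. THBS4, a thrombospondin of tendon and muscle, had a difference of -1.43 ± 0.28, which was -0.74 and missed the threshold over probes with IP above background on all arrays (limma adjusted p = 0.0639). The difference of ADAMTS12 was -1.39 ± 0.26 and that of ADAMTS6, with IP well above background in 1 of 3 first-session bulls, -1.10 ± 0.28. Under normexp correction the differences were smaller, at -0.97 for ADAMTS9, -0.90 for MMP3, -0.76 for ITGAV, -0.65 for ITGB8, -0.63 for ITGB1BP2, -0.54 for ADAMTS12 and -0.52 for THBS4, and these 7 were still called. ITGB4, the beta subunit of hemidesmosomes, measured -1.01, -0.87 and -0.65 in SF1, SF5 and HF5, and 0.37, 0.59 and 0.00 in SF4, HF2 and HF3, but its IP was not well above background in any of the 3 first-session bulls, so no size is given for it. At ITGB8 and ADAMTS12 the tested probes of a gene shared the sign. ITGB8_2 and ITGB8_3 gave -0.81 and -2.76, and the 3 ADAMTS12 probes, of which the last pair overlaps, gave -0.92, -0.79 and -2.48. Signs were opposite at ADAMTS8, whose mean was not called: ADAMTS8_1 gave 0.87 and ADAMTS8_3 -0.98.

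**Figure D3:**
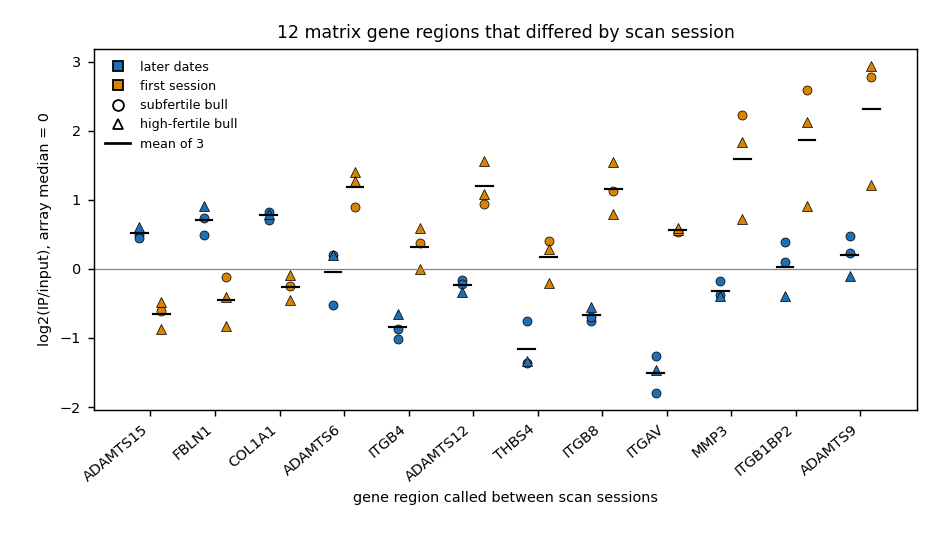
Values of log2(IP/input) at the 12 gene regions called between scan sessions, with the later dates (blue) left of the first session (orange), circles for subfertile and triangles for high-fertile bulls, and bars for the mean of 3 bulls. Colours part at every gene, and each colour holds both circles and triangles.

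The members called higher on the later dates had a mean of 2 to 5.5 CpGs per probe, and those called lower 0 to 2. Across the 67 tested member probes, log2(IP/input) correlated with the CpG count at 0.32, 0.32 and 0.41 in SF1, SF5 and HF5, and at -0.35, -0.35 and -0.45 in SF4, HF2 and HF3. These describe probes that share an array, and the 7644 tested named probes gave the same signs (0.18, 0.13 and 0.20 on the later dates, and -0.29, -0.23 and -0.33 in the first session). Without the 9 probes that lack a CpG, the values over the other 58 were 0.29, 0.28 and 0.34 on the later dates, and -0.25, -0.21 and -0.39 in the first session. At those 9 probes the mean was -0.37, -0.49 and -0.73 in SF1, SF5 and HF5, and 0.78, 0.53 and 0.93 in SF4, HF2 and HF3. At the 11 probes with 4 or more CpGs it was 0.16, 0.16 and 0.28 on the later dates, and -0.12, -0.54 and -0.29 in the first session. Over all 110686 tested probes the values were -0.03, -0.06 and -0.04 on the later dates, and -0.16, -0.15 and -0.17 in the first session, so the sign differed between sessions among member and named probes but not over the whole array.

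**Figure D4:**
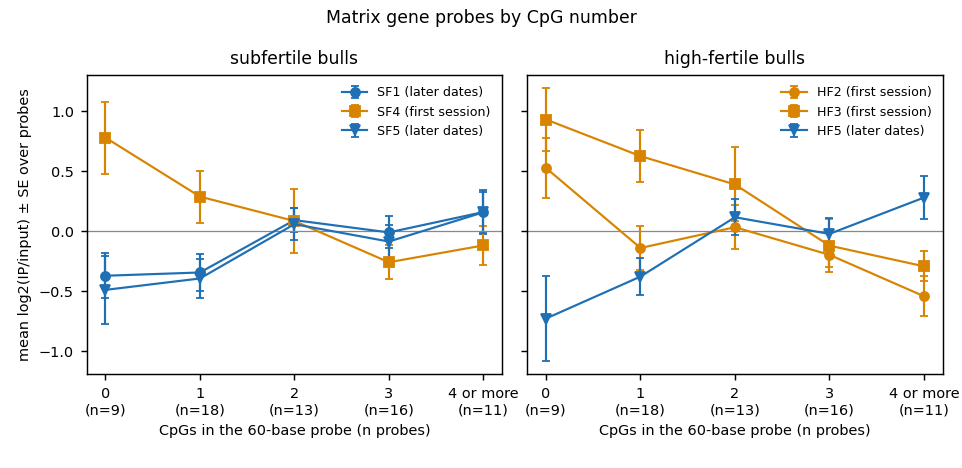
Mean log2(IP/input) ± SE over member probes with 0 to 4 or more CpGs, for the subfertile bulls (left) and the high-fertile bulls (right); blue lines are the later dates and orange lines the first session. In both panels the orange lines start above 0 at probes without a CpG and end below it, and the blue lines run the other way.

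Most probes of the array carry no name, and 16 of the members had at least 3 tested unnamed probes within 500 bases of a tested probe. Averaged over these neighbours, 0 of 16 were called between subfertile and high-fertile bulls, with 0 at an unadjusted p under 0.05. None of all 2150 such neighbourhoods was called either (lowest limma adjusted p = 0.999), and their share at an unadjusted p under 0.05 was not counted. Between sessions 6 of 16 were called, all higher on the later dates, against 41% of 2150 such neighbourhoods. FBLN1 and ADAMTS15 were among them, with 1.11 ± 0.19 and 0.98 ± 0.18 (SE) over 9 and 10 neighbouring probes. At ITGB8 the 9 neighbours gave 0.03 ± 0.21, against -1.79 for the named probes, and at MMP16 the 19 neighbours measured -0.19, -0.14 and -0.24 in SF1, SF4 and SF5, and -0.76, -0.44 and -0.15 in HF2, HF3 and HF5. The low level of the named MMP16 probes was thus less marked at the probes around them in every bull but HF3, where the named probes measured -0.36.

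Of 118 other matrix and adhesion genes listed, 58 were named on the array and 30 could be tested; 0 of 30 were called between subfertile and high-fertile bulls, 1 had an unadjusted p under 0.05, and 2 did not overlap between groups, against 3.87% of all gene regions. The lowest p belonged to FMOD, fibromodulin, which binds collagen fibres: it measured 0.30, 0.53 and 0.36 in SF1, SF4 and SF5, and 1.50, 1.76 and 0.58 in HF2, HF3 and HF5, a difference of -0.88 ± 0.37 (SE, limma adjusted p = 1). The subfertile bulls lay below the high-fertile ones, narrowly so for HF5. The adhesion adaptor TNS1 was the other gene without overlap, at -0.45, -0.67 and -0.48 in SF1, SF4 and SF5, and -0.02, -0.03 and 0.05 in HF2, HF3 and HF5. SPP1 (osteopontin) and NID1 (nidogen of the basement membrane) had differences of -0.98 ± 0.43 and -0.82 ± 0.43, and SPOCK2, VTN, HAPLN1 and FERMT2 differences of 0.96, 0.62, 0.38 and 0.27, all with overlapping groups. Between sessions 6 of 30 were called, 2 higher and 4 lower on the later dates, against 20.1% of all gene regions.

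The ADAM genes known from the sperm surface could be given only without the input filter. ADAM3A, which male mice need for sperm to enter the oviduct, was measured by 1 probe whose input was well above background on none of the 6 arrays, so its ratio has no order. ADAM1B, with input above background on 3 arrays, measured -0.55, 1.33 and -2.11 in SF1, SF4 and SF5, and 1.95, 0.87 and -0.02 in HF2, HF3 and HF5, but IP was well above background on none of the 6 arrays, so these ratios give no size. ADAM32, with input above background at 5 and IP at 3 of 12 spots, averaged 0.26, 0.83 and 0.10 in SF1, SF4 and SF5, and 0.80, 0.93 and 0.70 in HF2, HF3 and HF5. All of these bright spots belonged to ADAM32_2, which measured -0.20, -0.48 and -0.72 in SF1, SF4 and SF5, and -0.53, 0.40 and -0.39 in HF2, HF3 and HF5. The other probe, ADAM32_1, had neither input nor IP above background on any array, so the average gives no size. The groups overlapped at both genes, and without the filter 0 of all 75 members were called between groups (0% of 7932 gene regions, with 0 members and 1.66% of all at an unadjusted p under 0.05). Groups did not overlap at 4 of the 75, against 4.55% of all.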

How the data were processed

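The authors deposited 1 scanner table per array, with linear spot intensities and a log10 ratio, extracted by Agilent Feature Extraction 10.7.3.1, per the file headers. They also deposited a value table for the series, which holds that ratio as log2 values: it differed from the scanner files by at most 7.77e-07 and missed 1 probe. Its column medians were -0.02, 0 and -0.04 in SF1, SF4 and SF5, and 0, -0.01 and -0.04 in HF2, HF3 and HF5, so not every column had a median of exactly 0. Red (IP) over green (input) follows from the dyes in the labels.

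From these, log2(IP/input) of the processed signals was centred on the median of the non-control probes of its array, with no loess or quantile step. Gene names stood in 3 of the 6 files and were carried to the others by probe number and sequence. Of the 75 names, 69 were matched by name in RefSeq genes of assembly NDDB_SH_1. Gene regions (at least 1 tested probe) were fitted with limma 3.58.1 in R 4.3.3 (lmFit, eBayes, 2-sided), with fertility group as the only term, and p-values were adjusted over all 4286. For sessions, group and session were fitted together, and levels used an intercept. The tests were checked on simulated data of independent arrays, which held no session effect. The R package data.table (version 1.17.8) and matplotlib 3.10.9 were used.

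The members, gene lists and tests were chosen with earlier results of these data known. Genes were named by rule: members without overlap between groups, up to 8 per direction called between sessions, the 6 highest and 6 lowest levels, in each family the extremes and the smallest p, members with at least 3 tested probes, sperm-surface ADAMs, and up to 4 further matrix genes per direction. COL1A2, COL4A1, COL4A3, ITGA2B and ADAMTS6 between sessions were added after their values were seen. Alternatives were the filters, the background correction, the centring, the deposited ratio, at least 3 probes, the session, the slide and leaving out each bull. Exon, promoter and protein annotation was not used here. A log2(IP/input) also moves with the CpGs of a fragment and is no share of methylated cytosines.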

Additional observations from a re-analysis of the deposited data

How the results depend on the processing

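No paired analysis was possible because the groups share only replicate number 5. The number of member gene regions called between subfertile and high-fertile bulls was 0 under every alternative except the later dates alone, where it was 1 (MMP20); member probes called stayed at 0. The median difference relative to all gene regions ranged from -0.2489 (without HF5) to 0.003 (without HF3). Between sessions, calls numbered 32 of 75 without the input filter (30 lower, against 35.2% of all and with a median over all gene regions of -0.85). They numbered 1 of 6 with at least 3 tested probes, against 20.8% of all. When a bull was left out they ran from 0 to 16, against 0% to 32% of all. Of the 12 gene regions called between sessions, 11 (all but ADAMTS6, which was not followed singly) kept their direction under the alternatives run. Level calls numbered 2 without the filter, with the IP filter, under normexp and with at least 3 tested probes, 0 when centred on tested probes, and from 0 to 2 when a bull was left out. The share of all gene regions with a level call was not counted under these alternatives, so these counts show nothing particular to the members. Centring on tested probes moved the session median over all gene regions to -0.23, against 0.01. The causes were not tested, except that fewer genes enter with at least 3 probes. The deposited ratio changed no sign. A slide block, added after the data were seen, could not change the differences between groups, because each slide held equal numbers of subfertile and high-fertile bulls. The session block changed the sign of 14 of 40 member differences between groups, the later dates alone 25 and leaving out HF3 17. Dim input kept 35 of 75 genes out of the tests.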

Other observations

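Without the input filter the groups did not overlap at 4 of 75 member genes, against 4.55% of all gene regions. Besides ITGA7 these were ITGB2, MMP27 and ITGB3, named here after their values were seen. ITGB2, the beta subunit of leukocyte integrins, measured 1.15, 0.98 and 1.08 in SF1, SF4 and SF5, and 0.31, -0.83 and 0.71 in HF2, HF3 and HF5. All 3 subfertile bulls lay above the high-fertile ones (limma adjusted p = 0.998), but input was not well above background in SF4 or HF2, nor IP in SF4, HF2 or HF3, so no size is given. MMP27 and ITGB3 were lower in subfertile bulls, but their input was well above background on none of the 6 arrays, so their ratios give no size.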
